A study of Mus musculus with 6 samples.

Results

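The 38 genes described here act in S phase, the part of the cell cycle in which DNA is copied, and were chosen by name from the replication machinery, from the supply of nucleotides and histones and from fork control. Their transcripts were measured by RNA-seq in endothelial cells (EC), the cells that line blood vessels, isolated from C57BL/6N mouse lungs. The libraries fell into 2 groups, 3 from infant mice and 3 from young adult mice, and the question was which transcripts differ between growing and mature lung EC. According to the study's methods the infant mice were in the second week of life and the young adult mice in the third month, and the cells were sorted by flow cytometry as live, positive for CD31 and CD34 and negative for PTPRC, LYVE1, LY76 and PDPN. A row was found for 35 of the 38 genes, among 12623 genes in all. Cdc6, Dscc1 and Chaf1a had no row and are not analysed here. All 35 passed the filter on low values, an RPKM (reads scaled to transcript length and to the mapped reads of the library) of at least 1 in at least 1 library, and 5 of them (Rrm2, Hells, Dtl, Pole and Cdt1) reached it in infant libraries alone, so that the counts below describe the genes that passed.

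DNA is copied from origins that are prepared in G1. Cdt1 and Cdc6 load a ring of the proteins Mcm2 to Mcm7 onto DNA, and the ring becomes the replicative helicase when Cdc45 and the GINS complex join it. Primase and polymerase alpha start each strand, polymerases epsilon and delta extend it on the sliding clamp Pcna, which replication factor C loads, and Fen1 and Lig1 join the fragments of the lagging strand. Many of these genes are switched on at the G1/S border by E2F transcription factors, and many genes of G2 and mitosis are switched on later through another promoter element, the cell cycle homology region. Lung capillaries still grow in infant mice, and lung EC of adult animals rarely divide.

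Promoters were examined first, because E2F binding to short DNA motifs is the shared control for which these genes are known. The 250 bases before the RefSeq start were searched on both strands for TTTGGCGC, TTTCGCGC, TTTCCCGC and TTTGCCGC, and matches can overlap each other. Of the 35 measured genes 28 had a promoter in the reference table, and 8 of these (28.6%) held at least 1 match: Cdca7, Dtl, Hells, Mcm5, Mcm6, Mcm7, Pola1 and Rfc3. The share was 3.79% among the 9026 genes tested that had a promoter, and 1.86% among all 32851 promoters of the table. The shorter cell cycle homology element TTTGAA was in 4 of the 28 promoters (14.3%), those of Cdc45, Fen1, Mcm2 and Nasp, against 12.7% of all genes tested and 13 of 36 genes of G2 and mitosis (36.1%). The start is that of the table, and for some genes, Hells among them, it lies inside the annotated gene. The 4 stretches below, which adjoin the annotated gene, are the 150 bases before the start in RefSeq of GRCm38.p6, 5′ to 3′ on the strand of the gene, with E2F matches in capitals. Mcm6 is shown for its 3 matches, of which a pair on opposite strands overlaps, Dtl for a match that ends at the base before the start, Rfc3 for a match to other letters close to the start, and Rrm2, the gene with the largest fold change of the 35, as a promoter without these letters. These 4 were chosen after the values were seen, since Gins2 had no promoter in the table and no called gene held a match.
Mcm6, chr1:128359706-128359855, minus strand: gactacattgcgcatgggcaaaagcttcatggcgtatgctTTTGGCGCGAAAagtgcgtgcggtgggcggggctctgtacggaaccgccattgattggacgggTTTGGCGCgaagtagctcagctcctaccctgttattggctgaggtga
Dtl, chr1:191575545-191575694, minus strand: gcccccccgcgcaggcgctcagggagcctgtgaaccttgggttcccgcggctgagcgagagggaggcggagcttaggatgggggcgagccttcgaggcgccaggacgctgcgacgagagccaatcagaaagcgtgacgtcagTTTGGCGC
Rfc3, chr5:151651209-151651358, minus strand: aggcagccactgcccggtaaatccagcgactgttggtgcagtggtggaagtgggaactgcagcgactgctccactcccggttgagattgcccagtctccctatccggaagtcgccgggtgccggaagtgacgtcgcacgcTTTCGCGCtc
Rrm2, chr12:24708104-24708253, plus strand: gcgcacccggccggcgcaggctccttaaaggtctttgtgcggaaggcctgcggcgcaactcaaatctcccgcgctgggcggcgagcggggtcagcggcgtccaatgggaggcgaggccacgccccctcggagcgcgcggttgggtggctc

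Several measures of the libraries bear on what follows. The depth of each library is unknown, because the values were RPKM and read counts were not used here, and the study gives an average coverage over the libraries alone. Endothelial markers were high in all 6 libraries, with 1 of 14 called (Tek, higher in young adult EC), and their summed level was 4081, 5487 and 3754 RPKM in replicates 1 to 3 of the infant group, against 5697, 6024 and 6302 RPKM in those of the young adult group. Markers of several other cell types were higher in the infant libraries. Fibroblast markers (9 of 10 called lower in young adult EC) summed to between 359 and 1316 RPKM in infant and between 11.4 and 25.3 RPKM in young adult libraries, mural markers (9 of 10) to between 70.1 and 238.1 and between 12.1 and 16.5 RPKM, and erythroid markers (7 of 8) to between 9657 and 79870 and between 822.5 and 1351 RPKM. Epithelial markers (3 of 8) and leukocyte markers (4 of 9) overlapped in their sums, at 6378 to 11220 against 1782 to 8273 RPKM and at 316 to 511.1 against 140 to 547.6 RPKM, and of 4 lymphatic markers 1 was called higher (Lyve1, which the sort selected against) and the sums were 89 to 192.7 against 268.5 to 411.3 RPKM. Lyve1 made up most of the lymphatic sums, and the other 3 lymphatic markers had negative log2 fold changes and were not called. Among the markers listed at 0 were the mural marker Cspg4, the epithelial marker Epcam and the erythroid marker Slc4a1, each in young adult replicate 1 alone. Ddx3y, on the Y chromosome, measured 20.6, 16.5 and 21.9 RPKM in the infant libraries and was listed at 0 in the young adult ones, although the methods name female mice. Xist, a transcript of female cells, measured 8.2, 8.7 and 7.6 RPKM in the infant against 15.6, 12.5 and 13.4 RPKM in the young adult libraries. The infant libraries thus held transcripts of both kinds, and sex and age cannot be told apart here. The part of these markers in the results below was not tested. Fewer dividing cells and less transcript per dividing cell cannot be told apart in such bulk libraries.

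Of the 35 replication genes, 2 fell between infant and young adult EC: Rrm2, the small subunit of ribonucleotide reductase, and Gins2, a subunit of the GINS complex. None rose. A gene was called when limma gave a Benjamini-Hochberg adjusted p under 0.05 over all 12458 genes tested and a fold change over 1.75 on log2(RPKM + 1). The 2 genes were 5.71% of the members, against 8.1% of all genes tested that were called lower, and 3.33% of all genes were called higher. At the adjusted p alone, without the fold threshold, 7 members (20.0%, against 16.2% of all genes) were lower and 2 (5.71%, against 9.26%) were higher. At an unadjusted p under 0.05 in limma 10 were lower and 3 higher, against 3168 and 1864 of the 12458 genes tested. The median log2 fold change of the 35 genes was -0.17, against -0.071 over all genes tested. There were 24 negative (68.6%, against 58.6% of all genes) and 11 positive values. The groups did not overlap in 14 members (40.0%), 10 of them lower and 4 higher in young adult EC, against 43.4% of all genes. These shares were near those of all genes, so the counts are no result about the group, and the single genes carry the description that follows.

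**Figure D1:**
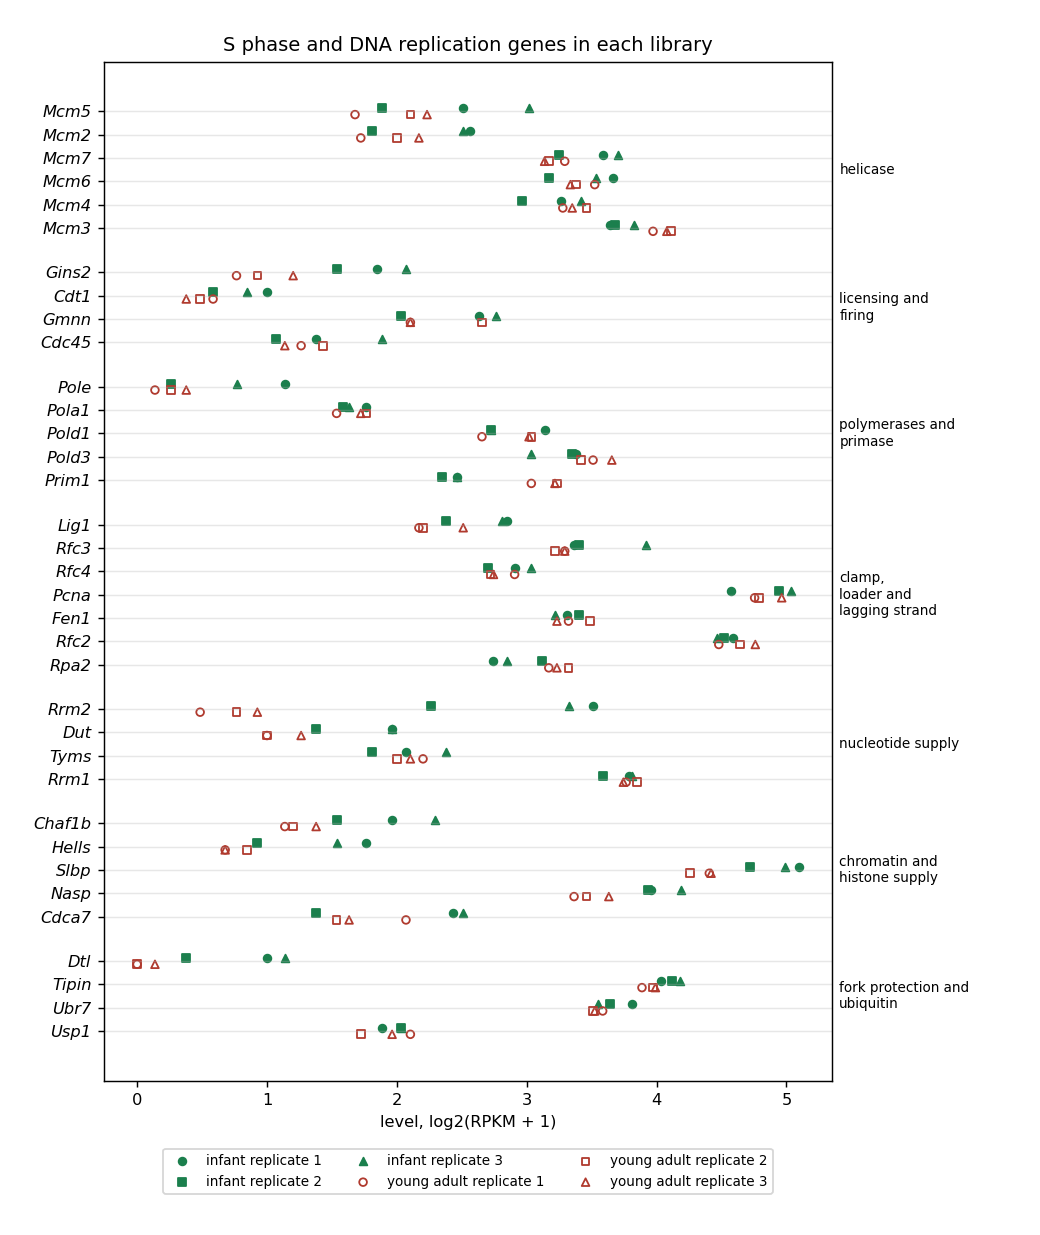
Level of each of the 35 genes as log2(RPKM + 1) (horizontal axis) in the 3 infant libraries (filled green symbols) and the 3 young adult libraries (open red symbols), ordered by role. In most genes the symbols of both ages lie together, whereas those of Rrm2 are far apart, and infant replicate 2 (filled square) is the lowest infant library in 24 of the 35 genes.

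Nucleotide supply held the largest difference. Rrm2 provides the radical that ribonucleotide reductase needs to make deoxynucleotides, and its protein is known to be made in S phase and destroyed in mitosis and G1. Its level was 10.4, 3.8 and 9.0 RPKM in replicates 1 to 3 of the infant group, against 0.4, 0.7 and 0.9 RPKM in those of the young adult group. Every infant library was above every young adult library, and infant replicate 2 stood well below the other infant libraries. The means were 7.73 ± 3.48 RPKM (SD, n = 3) and 0.667 ± 0.252 RPKM (SD, n = 3), a ratio of 0.0862. The log2 fold change was -2.31 (SE 0.31, limma adjusted p = 0.00337), and Rrm2 was called in all 6 fits that left out 1 library. The gene lies on chromosome 12 (24708254 to 24714146, GRCm38.p6).

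Rrm1, the large subunit of the same enzyme, measured 12.8, 11.0 and 13.0 RPKM in the infant against 12.6, 13.4 and 12.4 RPKM in the young adult libraries. Its groups overlapped, and its log2 fold change was 0.060, with a 95% confidence interval from -0.17 to 0.29 and a value of -0.040 once the libraries were rescaled without the globin genes. Since RPKM is per length, the subunits can be set against each other within a library. Rrm2 reached 81.2%, 34.5% and 69.2% of the level of Rrm1 in the infant libraries and 3.17%, 5.22% and 7.26% in those of young adults. On the log2 scale with a pseudocount of 1 the ratio was -0.69 ± 0.55 (SD, n = 3) in infant and -3.06 ± 0.23 (SD, n = 3) in young adult EC. The difference of -2.37 had an exact two-sided permutation p of 0.1, the smallest that 3 against 3 libraries can give. The ratio rests on Rrm2, which was already called and did not overlap, so this p adds no support for its fall.

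The remaining nucleotide genes were Dut, which removes dUTP, and Tyms, which makes thymidylate. Dut measured 2.9, 1.6 and 2.9 RPKM in the infant against 1.0, 1.0 and 1.4 RPKM in the young adult libraries. These did not overlap, and the log2 fold change of -0.68 passed the adjusted p (limma, 0.0347) but not the fold threshold. Tyms was at 3.30 ± 0.85 RPKM (SD, n = 3) and 3.30 ± 0.30 RPKM (SD, n = 3). Its log2 fold change was 0.017, with an interval from -0.35 to 0.38, and turned to -0.066 after rescaling without the globin genes and to -0.10 with array weights.

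**Figure D2:**
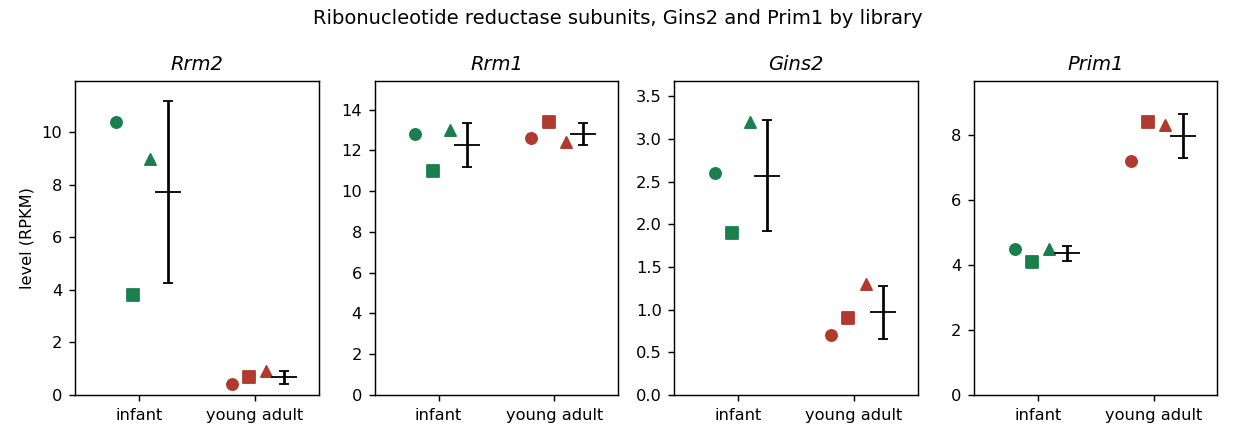
Level in RPKM (vertical axes, each from 0) of Rrm2, Rrm1, Gins2 and Prim1 in infant (green) and young adult (red) libraries, with circle, square and triangle for replicates 1, 2 and 3 and with the group mean and SD as black bars. Rrm2 and Gins2 are lower in every young adult library, Prim1 is higher in every young adult library, and Rrm1 overlaps between the ages.

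The genes of the Mcm2 to Mcm7 helicase ring went in different directions, and none was called. Their summed level was 52.4, 40.3 and 57.3 RPKM in the infant against 47.2, 50.0 and 49.2 RPKM in the young adult libraries, so that infant replicate 2 was the lowest and infant replicates 1 and 3 the highest of the 6. Mcm3 measured 11.5, 11.8 and 13.2 RPKM in the infant against 14.7, 16.3 and 15.9 RPKM in the young adult libraries, higher in each young adult library, with a log2 fold change of 0.34 (SE 0.09, limma adjusted p = 0.0369) that was under the fold threshold. Mcm4, at 8.6, 6.8 and 9.7 RPKM and 8.7, 10.0 and 9.2 RPKM, overlapped between the ages, with a log2 fold change of 0.15. The other ring genes had negative values.

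Mcm5 measured 4.7, 2.7 and 7.1 RPKM in the infant against 2.2, 3.3 and 3.7 RPKM in the young adult libraries, a log2 fold change of -0.47 (interval from -1.12 to 0.18). Mcm2 was at 4.9, 2.5 and 4.7 RPKM and at 2.3, 3.0 and 3.5 RPKM, a log2 fold change of -0.33 (interval from -0.84 to 0.18). In both genes infant replicate 2 lay within the young adult range and the other infant libraries lay above it. Mcm7 measured 11.0, 8.5 and 12.0 RPKM in the infant against 8.8, 8.0 and 7.8 RPKM in the young adult libraries (log2 fold change -0.31, limma adjusted p = 0.118). Mcm6, with 11.7, 8.0 and 10.6 RPKM and 10.5, 9.4 and 9.1 RPKM, had a log2 fold change of -0.045 that turned positive under 3 other scalings, at 0.015 with quantile normalization, 0.017 with median-of-ratios scaling and 0.037 with equal RPKM totals. The proteins form a ring with a single copy of each, but their transcripts did not stand at one level: the highest of the ring exceeded the lowest by 2.49, 4.72 and 2.81 times in infant and by 6.68, 5.43 and 4.54 times in young adult libraries. The highest was Mcm6 in infant replicate 1 and Mcm3 in the other 5 libraries, and the lowest was Mcm2 or Mcm5.

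The 4 measured licensing and firing factors all had negative log2 fold changes, as did 58.6% of all genes, and Gins2 was the only one of them called. GINS joins the Mcm ring and Cdc45 in the active helicase. Gins2 (chromosome 8, 120581266 to 120589075) measured 2.6, 1.9 and 3.2 RPKM in the infant against 0.7, 0.9 and 1.3 RPKM in the young adult libraries, with no overlap. The means were 2.57 ± 0.65 RPKM (SD, n = 3) and 0.967 ± 0.306 RPKM (SD, n = 3), and the log2 fold change was -0.85 (SE 0.18, limma adjusted p = 0.0153), close to the fold threshold of 0.807 on that scale. The call was lost without infant replicate 1 (-0.84) or infant replicate 3 (-0.73) and without young adult replicate 1 (-0.75) or young adult replicate 2 (-0.83), either by the fold or by the adjusted p. It was also lost with quantile normalization (-0.57), with equal RPKM totals (-0.80), with a pseudocount of 5 (-0.34) and with limma's treat, which tests against the fold threshold itself. Cdc45, which also joins the helicase, had -0.17 (interval from -0.66 to 0.32), with 0.11 under quantile normalization. Cdt1, the loader of the ring, had -0.33 at levels of at most 1.0 RPKM, with 0.16 under quantile normalization, and Gmnn, the inhibitor of Cdt1, had -0.19.

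Polymerase and primase genes went in different directions. Prim1, the catalytic subunit of primase that lays down RNA primers, had the highest fold change of the 35 genes. It measured 4.5, 4.1 and 4.5 RPKM in the infant against 7.2, 8.4 and 8.3 RPKM in the young adult libraries. The young adult values were all higher and the spread within each age was small, at 4.37 ± 0.23 RPKM (SD, n = 3) and 7.97 ± 0.67 RPKM (SD, n = 3). The log2 fold change of 0.74 (SE 0.10, limma adjusted p = 0.00339) was just under the fold threshold, although the means differed 1.82-fold without a pseudocount. Prim1 passed the threshold with a pseudocount of 0.1 (0.85), with quantile normalization (0.87) and with equal RPKM totals (0.81). It stayed under the threshold in all 6 fits that left out 1 library (0.70 to 0.80). The value was 0.65 after rescaling without the globin genes and 0.47 with a pseudocount of 5. The gene lies on chromosome 10 (128015215 to 128030030).

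Pold3, an accessory subunit of polymerase delta, was the other member of this role without overlap, at 7.2 to 9.4 RPKM in infant and 9.7 to 11.6 RPKM in the young adult libraries (log2 fold change 0.27, limma adjusted p = 0.139). Pold1, the catalytic subunit of polymerase delta, had 0.042 (interval from -0.32 to 0.41), and Pola1, the catalytic subunit of polymerase alpha, had 0.014 (interval from -0.26 to 0.29), and both turned negative after rescaling without the globin genes, at -0.052 and -0.061. Pole, the catalytic subunit of polymerase epsilon, was at 0.2 to 1.2 RPKM in infant and 0.1 to 0.3 RPKM in young adult EC, where the rounding step of 0.1 RPKM weighs most. Its log2 fold change was -0.46 (interval from -1.01 to 0.08), and 0.0010 under quantile normalization.

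The clamp and the lagging strand held no called gene, and Pcna, the clamp itself, was at nearly the same level at both ages. Pcna measured 22.8, 29.8 and 31.8 RPKM in the infant against 26.0, 26.6 and 30.2 RPKM in the young adult libraries. The young adult values lay within the infant range, and the log2 fold change was -0.016, with an interval from -0.34 to 0.30 and values of 0.049 with median-of-ratios scaling and 0.070 with equal RPKM totals. Rfc2, a subunit of the clamp loader, measured 23.0, 21.9 and 21.1 RPKM and 21.3, 24.0 and 26.1 RPKM, a log2 fold change of 0.10 (interval from -0.13 to 0.34). Of the other loader subunits Rfc3 had -0.29 and Rfc4 had -0.090, the latter with 0.031 under quantile normalization. Rpa2, a subunit of the protein that coats single-stranded DNA, had 0.34 without overlap (limma adjusted p = 0.0756). Fen1, the flap nuclease, had 0.036, with -0.059 after rescaling without the globin genes, and Lig1, the ligase, had -0.38 (limma adjusted p = 0.113).

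**Figure D3:**
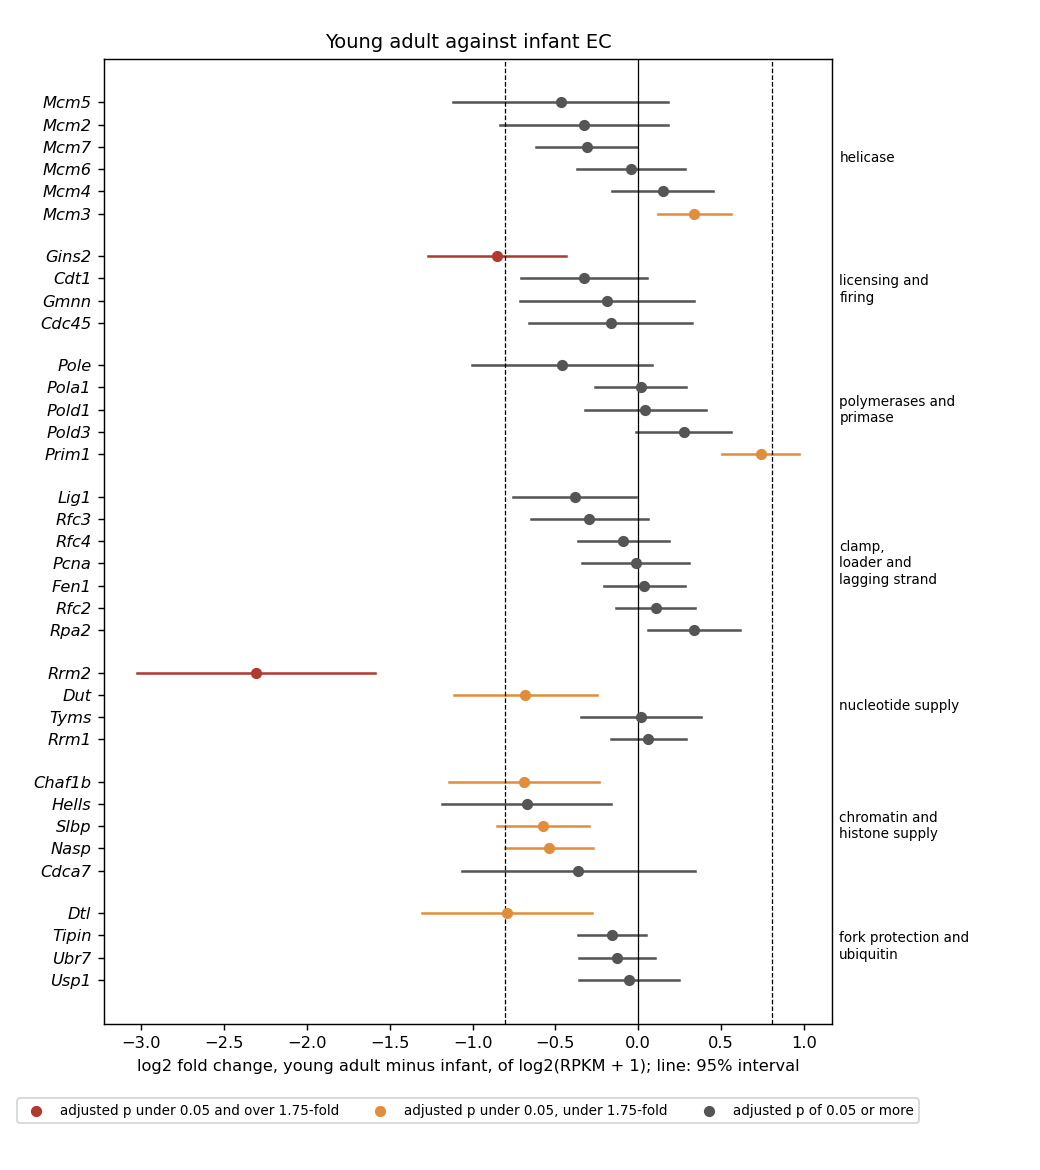
Log2 fold change of log2(RPKM + 1), young adult minus infant (horizontal axis), with its 95% confidence interval (lines) for the 35 genes by role, and dashed lines at 1.75-fold. Red marks the called genes Rrm2 and Gins2, and orange marks the 7 genes at an adjusted p under 0.05 whose change was under that fold, among them Prim1 and Mcm3 on the right.

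Chromatin and histone supply had the lowest median of the roles. Its 5 genes had log2 fold changes from -0.69 to -0.36 with a median of -0.57, 4 of them without overlap (43.4% of all genes) and 3 lower at an adjusted p under 0.05 (16.2% of all genes), while none passed the fold threshold. Slbp binds the stem-loop of histone mRNAs, which carry no poly(A) tail. It measured 33.2, 25.4 and 30.7 RPKM in the infant against 20.2, 18.1 and 20.4 RPKM in the young adult libraries, a log2 fold change of -0.57 (SE 0.12, limma adjusted p = 0.0146). Nasp, a chaperone of histones H3 and H4, measured 14.5, 14.3 and 17.2 RPKM and 9.3, 10.0 and 11.4 RPKM, a log2 fold change of -0.54 (SE 0.11, limma adjusted p = 0.0154). Both were among the more abundant members, and both were lower in every young adult library.

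Chaf1b, a subunit of the chromatin assembly factor that places histones behind the fork, measured 2.9, 1.9 and 3.9 RPKM and 1.2, 1.3 and 1.6 RPKM (log2 fold change -0.69, limma adjusted p = 0.0376). Hells, a chromatin remodeller needed for DNA methylation, measured 2.4, 0.9 and 1.9 RPKM and 0.6, 0.8 and 0.6 RPKM (-0.67, limma adjusted p = 0.0575). Cdca7, its partner, overlapped between the ages (-0.36). In Hells and Cdca7 infant replicate 2, at 0.9 and 1.6 RPKM, was below the other infant libraries, which were at 1.9 to 2.4 and at 4.4 to 4.7 RPKM.

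Among the genes of fork protection and ubiquitin control, Dtl, which directs the ubiquitin ligase that removes Cdt1 in S phase, was almost at 0 in young adult EC. It measured 1.0, 0.3 and 1.2 RPKM in infant libraries, was listed at 0 in young adult replicates 1 and 2 and measured 0.1 RPKM in replicate 3. The log2 fold change was -0.79 (SE 0.22, limma adjusted p = 0.0363), under the fold threshold with a pseudocount of 1 and over it with a pseudocount of 0.1 (-2.72). Tipin, which holds the polymerase and helicase together at paused forks, measured 15.4, 16.4 and 17.1 RPKM and 13.8, 14.7 and 14.9 RPKM, without overlap but with a log2 fold change of only -0.16 (limma adjusted p = 0.211). Ubr7 had -0.13, and Usp1, which removes ubiquitin from Pcna, had -0.056, with 0.17 under quantile normalization and 0.010 with equal RPKM totals.

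Infant replicate 2 was the lowest infant library in 24 of the 35 genes (68.6%), against 35.6% of all genes tested. The summed level of the 35 genes was 289.3, 250.6 and 304.2 RPKM in the infant against 241.3, 251.1 and 259.7 RPKM in the young adult libraries, so the sum in infant replicate 2 lay within the young adult range. The number of members at 1 RPKM or more was 35, 31 and 33 in infant and 29, 29 and 30 in young adult libraries. Most fibroblast, mural and erythroid markers moved with this: in infant replicate 2 they summed to 359, 70.1 and 9657 RPKM, against 947.3 to 1316, 238.0 to 238.1 and 30430 to 79870 RPKM in the other infant libraries. Of the 10 fibroblast markers 8 were lowest there among the infant libraries. The fibroblast markers Dcn and Lum went the other way, at 19.9 and 14.4 RPKM against 7.6 to 8.0 and 4.1 to 4.7 RPKM. Endothelial markers also summed higher in infant replicate 2, at 5487 against 3754 to 4081 RPKM, as did epithelial, leukocyte and lymphatic markers, though 3 of 9 leukocyte markers were lowest there. The part of these cells was not tested. Without infant replicate 2 limma called 6 members lower (17.1%, against 10.6% of all genes), namely Rrm2 (-2.69), Dtl (-1.02), Gins2 (-0.99), Hells (-0.92), Chaf1b (-0.89) and Dut (-0.88). In that fit the median of the 35 genes was -0.36, against -0.073 over all genes tested. At the adjusted p alone 15 members were lower and 2 higher there. The share of all genes at the adjusted p alone was not determined for that fit, so the 15 are no result about the group.

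**Figure D4:**
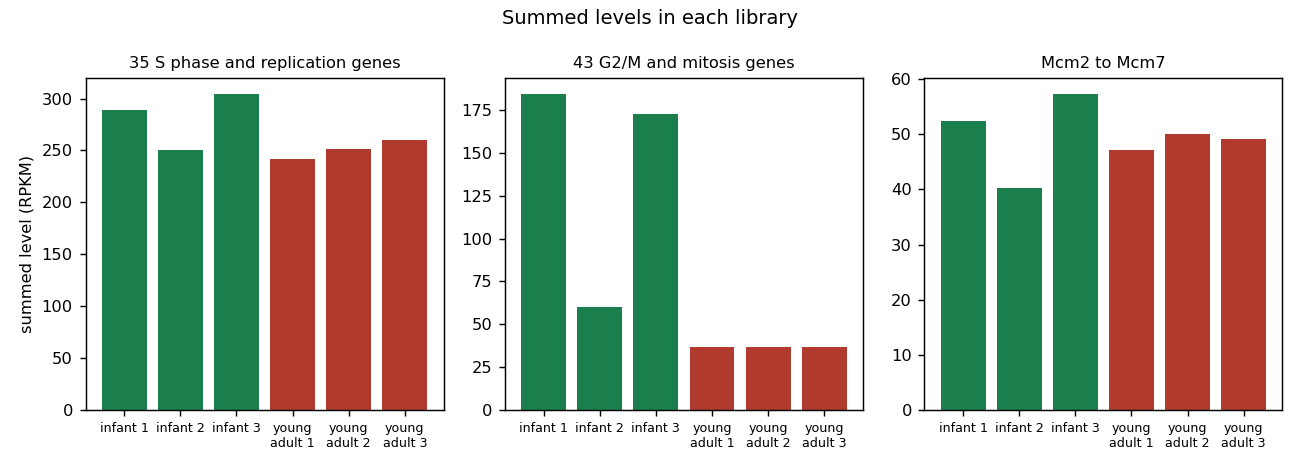
Summed RPKM (vertical axes from 0) per library of the 35 S phase and replication genes, of 43 genes of G2 and mitosis and of Mcm2 to Mcm7, with infant libraries in green and young adult libraries in red. The sum of the mitotic genes is 59.9 RPKM or more at the infant stage and at most 36.7 RPKM in young adults, whereas the sums of the replication genes and of the Mcm ring differ much less, and infant replicate 2 is the lowest infant library in each panel.

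Set by E2F match, the log2 fold changes of the genes overlapped. The 8 members with a match in the promoter had a median log2 fold change of -0.34, from -0.79 in Dtl to 0.014 in Pola1, with 0 called by limma and 1 at an adjusted p under 0.05. The 20 members with a promoter and no match had a median of -0.11, with 1 called and 7 at an adjusted p under 0.05. Of those 7, Mcm3 and Prim1 were higher in young adult EC and the others were lower. Among all genes tested 8.1% were called lower, and at the adjusted p alone 16.2% were lower and 9.26% higher. These counts are no test of the match. Mcm6, with 3 matches, had a log2 fold change of -0.045, which was positive under 3 scalings, and Rrm2, whose printed stretch held none, had the largest. A match is a description of the letters, and the absence of these letters from the window says nothing about binding.

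Of 50 further replication genes 42 had a row, 5 were called lower (11.9%, against 8.1% of all genes) and 1 was called higher (2.38%, against 3.33%), and the median log2 fold change was -0.11. These shares were near those of all genes. Cdc7, the catalytic subunit of the kinase that activates the Mcm ring, measured 7.9, 4.5 and 7.2 RPKM in the infant against 1.9, 2.0 and 2.4 RPKM in the young adult libraries (log2 fold change -1.25, limma adjusted p = 0.00458). It was called in all 6 fits that left out 1 library. The thymidine kinase Tk1 (-1.26), the hemimethylated DNA reader Uhrf1 (-1.14), the histone chaperone Asf1b (-0.99) and the ribonuclease H2 subunit Rnaseh2b (-0.88) were the others that fell, and each lost its call in at least 4 of those fits. Without infant replicate 1 or 3, or without young adult replicate 1 or 2, the only call left was Cdc7. The gene that rose was Samhd1, which breaks deoxynucleotides down and so acts against ribonucleotide reductase. It measured 12.0, 21.4 and 13.9 RPKM in the infant against 25.9, 26.8 and 32.5 RPKM in the young adult libraries (log2 fold change 0.84, limma adjusted p = 0.0220), was named here after its value was seen, and was called in 1 of the 6 fits without a library. Its call was also lost after rescaling without the globin genes (0.74), which were far higher in the infant libraries, with a pseudocount of 5 (0.71) and with treat. The abundant uncalled genes Ssrp1 (0.042, negative under quantile normalization and after rescaling without the globin genes), Rpa1 (-0.16) and Rpa3 (-0.21) had values near 0.

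Several regulators of the G1/S switch fell. Of 29 measured genes 5 were called lower (17.2%, against 8.1% of all genes) and 0 higher, 3 being higher at an unadjusted p under 0.05 in limma, and the median log2 fold change was -0.27. The genes that fell were the cyclin D2 gene Ccnd2 (-1.01), the transcription factor genes E2f2 (-1.05) and Myc (-1.09) and the inhibitor genes Cdkn1c (-1.25) and Cdkn2c (-1.79), of which the inhibitors restrain cyclin-dependent kinases. Cdkn1c and Myc were called in all 6 fits without a library, whereas the other 3 lost the call in at least 4 of them, and the count was 2 without infant replicate 1 or 3 or without young adult replicate 1 or 2. Cdkn1a, the p21 inhibitor gene, measured 24.7, 85.5 and 23.6 RPKM in the infant against 76.2, 136.5 and 92.0 RPKM in the young adult libraries. Infant replicate 2 lay within the young adult range there, and the log2 fold change of 1.39 did not pass (limma adjusted p = 0.0653). Cdkn1a was called higher without infant replicate 2 (1.99), with array weights (1.82) and with equal RPKM totals (1.48). Cdkn2c was not called with quantile normalization (-1.66) or with a pseudocount of 5 (-1.19). Cdk4 (-0.20) and Ccnd3 (-0.16) were abundant at both ages and were not called.

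Most genes of G2 and mitosis fell. Of 43 measured genes of G2 and mitosis 32 were called lower (74.4%, against 8.1% of all genes), 0 were higher at an unadjusted p under 0.05 in limma, all 43 had negative log2 fold changes, and the median was -1.20. Their summed level was 184.5, 59.9 and 173.1 RPKM in the infant against 36.7, 36.5 and 36.4 RPKM in the young adult libraries. Top2a, the topoisomerase that untangles replicated chromosomes, measured 8.9, 1.5 and 7.9 RPKM and 0.1, 0.2 and 0.1 RPKM (log2 fold change -2.42). Ccnb2 (-2.23), a mitotic cyclin gene, Birc5 (-1.90) and Kif23 (-1.82), which act in chromosome segregation and cell division, and Ube2c (-1.88), which helps to degrade cyclins, also fell. All 43 genes were lowest among the infant libraries in replicate 2. Without that library 40 were called lower, and without another library far fewer were, namely 4 without infant replicate 1, 5 without infant replicate 3 and 2, 4 and 8 without young adult replicates 1, 2 and 3. Calls over all genes moved too. Against 1009 called lower in the main fit, 1308 were without infant replicate 2 and 615 without infant replicate 1 or 3. Without young adult replicates 1, 2 and 3 they were 514, 551 and 845. The count of G2 and mitosis genes was 12 with quantile normalization, 3 with a pseudocount of 5, which shrinks the change of genes as low as these, and 0 with treat, where 10 were lower at an unadjusted p under 0.05. Over all genes 611, 338 and 124 were called lower under these settings. Of the most abundant genes that were not called, Hjurp had -0.21, Smc4 had -0.50 and Cdc20 had -0.74. These lists were not tested against each other.

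Among the genes of fork repair and its checkpoint 1 fell. Of 13 measured genes 1 was called lower (7.69%, against 8.1% of all genes) and 0 higher, with 1 higher at an unadjusted p under 0.05 in limma, and the median log2 fold change was -0.28. Rad51ap1, a factor of homologous recombination, measured 2.0, 2.1 and 2.2 RPKM in the infant against 0.3, 0.4 and 0.2 RPKM in the young adult libraries (log2 fold change -1.26, SE 0.13, limma adjusted p = 0.00143). Infant replicate 2 did not stand apart in that gene, and it was called in all 6 fits without a library, while 3 genes of the list were called lower without infant replicate 2 and 0 with a pseudocount of 5 or with treat (5 and 1 lower at an unadjusted p under 0.05). The checkpoint clamp gene Rad9a had 0.35 (limma adjusted p = 0.0315) under the fold threshold, and Atrip, the partner of the kinase Atr, had 0.051, with -0.045 after rescaling without the globin genes.

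**Figure D5:**
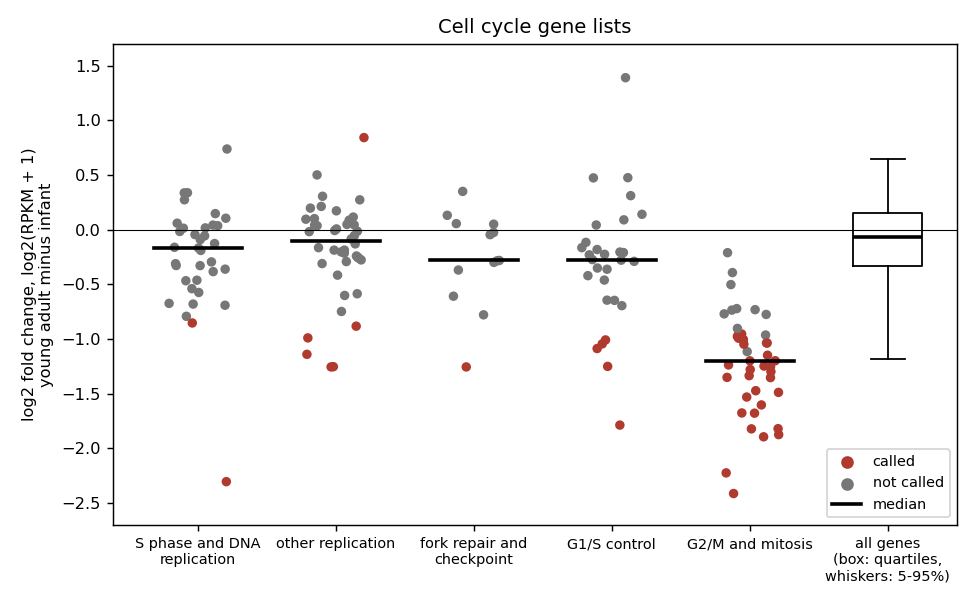
Log2 fold change of log2(RPKM + 1), young adult minus infant (vertical axis), of every measured gene (points) of the 35 S phase and replication genes and of 4 further cell cycle lists, with red for called genes and a black bar for the median, beside a box for all 12458 genes tested. The medians run from -0.11 for other replication genes to -1.20 for genes of G2 and mitosis.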

How the data were processed

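RNA-seq of sorted lung EC was analysed in 3 infant and 3 young adult libraries, grouped by the library titles. According to the study's methods and the labels, the authors extracted RNA with a PicoPure kit, amplified cDNA from 10 ng of total RNA with a SMARTer Ultra Low kit (poly(A) priming, PCR), sequenced paired 100 bp reads, aligned them to mm10 with STAR, allowing 10 mismatches, and tested RefSeq genes with DESeq2. Versions were not given in the sources used here. The values deposited by the authors were RPKM, rounded to 0.1, with 1 row per RefSeq transcript (17241 rows). 24 rows whose symbols had become dates were restored from the accession. Abundant transcripts, such as globin, lower all other RPKM of a library, and the pseudocount understates changes of low genes.

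Each gene was represented by its most abundant row over the 6 libraries. Of the members 5 had several rows (Nasp, Dut, Lig1, Cdc45 and Tyms). limma 3.58.1 in R 4.3.3 was run on log2(RPKM + 1), with lmFit, eBayes with an intensity trend and age as the only term, over 12458 genes with at least 1 RPKM in at least 1 library. This replaced the count test of the study, since the values were not counts. A call needed more than 1.75-fold on that scale and, after Benjamini-Hochberg adjustment, a p under 0.05. The code was tested on simulated data. The Rrm2 to Rrm1 ratio was compared with an exact permutation test in scipy 1.17.1. The labels call the libraries independent biological replicates.

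Values in all libraries were given for the called members, the 6 Mcm genes and the 6 further members with the highest mean RPKM, and for others chosen after their values were seen. From each further list at most the 5 called genes with the largest change and the 3 most abundant uncalled genes were named. Some items that these rules name are not reported here. The members, lists and thresholds were chosen with earlier results of these data known. Sequences and positions are from RefSeq tables of GRCm38.p6, the assembly behind mm10. Of the 38 members 30 had a promoter there. Alternatives were other pseudocounts (0.1 and 5), filters, scalings, variance models, thresholds, a sum over rows, a replicate block and leaving out each library.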

Additional observations from a re-analysis of the deposited data

How the results depend on the processing

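Against 2 members called lower and 0 higher, limma called 6 lower and 1 higher with a pseudocount of 0.1, 1 lower with a pseudocount of 5, 1 lower and 1 higher with quantile normalization or with equal RPKM totals, 5 lower with array weights, 7 lower and 2 higher without the fold threshold, and 0 lower with limma's treat against that threshold (1 at an unadjusted p under 0.05, and a lowest adjusted p of 0.0505). Leaving out each library gave 1 to 6 members called lower, the 6 without infant replicate 2 and the 1, Rrm2, without infant replicate 1, infant replicate 3, young adult replicate 1 or young adult replicate 2. Over all genes the number called lower in these fits ran from 514 without young adult replicate 1 to 1308 without infant replicate 2, against 1009. The other settings moved this number too. It was 1425 with a pseudocount of 0.1, 338 with a pseudocount of 5, 611 with quantile normalization and 974 with equal RPKM totals. With array weights it was 1264, without the fold threshold 2022 and with treat 124. Summing the rows of a gene called 3 members lower, Dut among them, and 1076 of all genes. Rescaling without the globin genes called 3 members lower, Dtl among them, and 1184 of all genes. Rrm2 was called under every alternative but treat, and where 1 member was called lower the call lost was that of Gins2. The 5 other replication genes called lower became 0 with a pseudocount of 5 (11 lower at an unadjusted p under 0.05 in limma), 0 with treat (1 at an unadjusted p under 0.05), 1 with quantile normalization, 8 without the fold threshold and 1 to 6 without a library. The median of the members was negative under all alternatives run, from -0.36 without infant replicate 2 to -0.03 with quantile normalization, which moved the median of all genes by 0.12 and the share of higher calls among all genes from 29.1% to 46.5%. That share was 41.5% with a pseudocount of 5. The causes were not tested.

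The sign of small log2 fold changes depended on the scaling. Quantile normalization gave 0.015 for Mcm6, 0.16 for Cdt1, 0.11 for Cdc45, 0.0010 for Pole, 0.031 for Rfc4, 0.17 for Usp1 and -0.017 for Ssrp1. Median-of-ratios scaling gave 0.017 for Mcm6 and 0.049 for Pcna, and equal RPKM totals gave 0.037 for Mcm6, 0.070 for Pcna and 0.010 for Usp1. Equal totals without the globin genes gave -0.061 for Pola1, -0.052 for Pold1, -0.059 for Fen1, -0.066 for Tyms, -0.040 for Rrm1, -0.062 for Ssrp1 and -0.045 for Atrip, and array weights gave -0.10 for Tyms. Leaving out a library turned the sign of Mcm6 (-0.19 to 0.060), Cdc45 (-0.36 to 0.053), Pola1 (-0.032 to 0.083), Pold1 (-0.027 to 0.18), Pcna (-0.16 to 0.076), Fen1 (-0.033 to 0.093), Tyms (-0.12 to 0.16), Rrm1 (-0.011 to 0.10), Usp1 (-0.14 to 0.048) and Ssrp1 (-0.014 to 0.096). No other named gene changed sign.

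Replicate numbers did not pair the libraries: deviations of same-numbered libraries correlated at 0.028, -0.110 and -0.021. With a replicate block limma called 2 members lower and 0 higher, 27 in place of 32 genes of G2 and mitosis lower, and in the G1/S list 4 in place of 5 lower (without Cdkn2c) and 1 in place of 0 higher (Cdkn1a), and the difference of the log2 ratio of Rrm2 to Rrm1 stayed at -2.37 (exact sign-flip p = 0.25, the smallest that 3 pairs can give). Without a library that difference ran from -2.68 to -2.16.

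Unknown depth and rounding to 0.1 RPKM limit the genes under about 1 RPKM, such as Dtl, Pole and Cdt1. With 3 libraries an age, infant replicate 2 alone moved the count of called members from 2 to 6.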
